A study of Mus musculus with 24 samples.

Results

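The genes described here are 5 neighbours on mouse chromosome 1: Akr1cl, the pseudogene Gm8550, and the gamma-crystallin genes Cryge, Crygd and Crygc. They were picked by symbol, as annotated in GENCODE M21, from the 48985 genes of the count table, and were chosen because of their levels in these libraries. Their levels by family and by allele are therefore given as descriptions, with no test. All 5 were among the 16253 genes that passed the filter on low counts, which a gene can pass through the libraries of 1 line alone; outside d3, most libraries had few or no crystallin counts.

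RNA-seq was carried out on F121/9 cells, female F1 hybrid mouse embryonic stem cells that carry a 129/Sv and a CAST/EiJ genome, so that reads over sequence differences can be assigned to either allele. The cells were grown on gelatin in serum-free medium with leukemia inhibitory factor, 1 µM of the MEK inhibitor PD0325901 and 3 µM of the GSK-3 inhibitor CHIR99021, which holds them in a naive pluripotent state. There were 5 families of lines, named d3, d6, i7, i12 and i10 after a recombination, and each held a parental line with the genotype control and 1 or more clones with the genotype recombined. The question put by the design is whether expression changes upon recombination. The d3 family held the parental line and clones 12 and 21, d6 the parental line and clone 16, i7 the parental line and clones 7 and 12, i12 the parental line and clone 10, and i10 the parental line and clone 18. Each recombined line is 1 clone, and each of the 12 lines was sequenced in biological duplicates, 24 libraries in all. What the recombinations change in the genome is not spelled out in the labels.

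Gamma-crystallins are small structural proteins of the vertebrate eye lens, where they are packed at high concentration in fibre cells and give the lens its refractive power. Cryge, Crygd and Crygc belong to a tandem array that arose by gene duplication. Akr1cl is a member of the aldo-keto reductases, enzymes that reduce aldehydes and ketones with NADPH. A processed pseudogene such as Gm8550 is a copy of a spliced RNA that was inserted back into the genome.

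On GRCm38, Akr1cl (ENSMUSG00000025955.13) lies at chr1:65012689-65032759 on the minus strand. Gm8550 (ENSMUSG00000090042.1) lies inside it, at chr1:65028080-65028732 on the plus strand. The crystallin genes follow on the minus strand, with Cryge (ENSMUSG00000070870.6) at chr1:65048554-65051149, Crygd (ENSMUSG00000067299.11) at chr1:65061872-65063452 and Crygc (ENSMUSG00000025952.15) at chr1:65071525-65073689. The 150 bases before each RefSeq start (RefSeq, GRCm38.p6, minus strand, written 5′ to 3′ in the direction of transcription) are shown because the 3 crystallins moved together across the libraries. Their neighbour Akr1cl followed them only in part in its total counts, which overlap those of Gm8550. Its counts beyond those of Gm8550 did follow the crystallins, as described below. A link between these sequences and the levels was not tested. Capitals mark the runs TATATA and CTTTTGTG, which were picked after the sequences had been seen.
Akr1cl, chr1:65032760-65032909: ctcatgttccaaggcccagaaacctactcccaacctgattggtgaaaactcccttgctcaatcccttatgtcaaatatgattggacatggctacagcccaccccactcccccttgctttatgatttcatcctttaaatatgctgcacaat
Cryge, chr1:65051164-65051313: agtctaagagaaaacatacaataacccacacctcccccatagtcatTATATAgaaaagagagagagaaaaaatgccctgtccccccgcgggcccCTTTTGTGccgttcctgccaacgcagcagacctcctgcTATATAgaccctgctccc
Crygd, chr1:65063441-65063590: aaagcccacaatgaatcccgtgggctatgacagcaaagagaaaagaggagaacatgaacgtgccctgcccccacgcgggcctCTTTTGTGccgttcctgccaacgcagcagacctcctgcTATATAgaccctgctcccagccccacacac
Crygc, chr1:65073533-65073682: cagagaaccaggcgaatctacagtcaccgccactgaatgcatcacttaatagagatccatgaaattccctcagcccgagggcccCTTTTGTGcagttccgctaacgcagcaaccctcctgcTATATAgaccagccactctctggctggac

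The 3 crystallin windows share long stretches, and the Akr1cl window shares none as long with them. The longest run in common was 56 bases between Cryge and Crygd and 18 bases between Crygc and either of them, against at most 7 bases between Akr1cl and any crystallin. Crygd shared runs of only 8 bases with Crygb and with Cryga, other gamma-crystallin genes, so a short run does not show that windows are unrelated. TATATA, which reads the same on both strands, is a form of the TATA box, the element near many regulated starts at which the TATA-binding protein binds. It began 30 bases before the start in Crygd, 29 in Crygc, and 18 and 104 in Cryge. CTTTTGTG began 68, 66 and 56 bases before the start in Crygd, Crygc and Cryge. Searched on both strands over the same 150 bases of 32851 RefSeq promoters, TATATA was found in 2.97%, CTTTTGTG in 0.676% and both in 8 promoters, 0.0244%. Promoters of this duplicated gene family may be among those 8, and the runs were picked from these windows. The shares therefore do not measure how rare the pair is outside the family. Cryga and Crygf, which stayed under 1 CPM in all libraries, also carry both runs, so the pair is not particular to Cryge, Crygd and Crygc. At this low level Crygf was higher in d3 as well, with 20 counts in d3 and 2 elsewhere, whereas Cryga had 11 and 12. The ranges of both overlapped. Akr1cl had neither run. TGCTGA, the core letters of the Maf recognition element, was in 10.1% of all promoters, ATGCAAAT, the octamer bound by POU factors, in 0.998%, and both were missing from these 4 windows. Over 300 bases around the start, CpG dinucleotides numbered 0 in Akr1cl, 11 in Cryge, 7 in Crygd and 8 in Crygc, with a median of 7 over all promoters.

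Total counts ran from 3286819 to 15581094 per library, and the d3 family was the deepest, with 10383315 to 15581094, while i12 (3829089 to 6920899) and i10 (3286819 to 5189267) were the shallowest. Depths overlapped between families: i7 clone 7 replicate 2, with 13853975 counts, was deeper than d3 parental replicate 2, with 10383315, and had 3 Crygd counts against 45. Family and any batch that goes with a family cannot be told apart. Levels are in CPM, the count of a gene relative to the library's total counts, scaled by TMM factors, of both alleles added. The cells showed the markers of naive embryonic stem cells: the 8 of 9 listed markers that were found in the table summed to 7872 to 9428 CPM in d3 libraries and 7434 to 11011 CPM in the other 18, led by Tfcp2l1, at 2056 CPM in d3 and 2586 CPM elsewhere, and Tdgf1, at 1027 and 1696 CPM. Nanog, named after its values were seen as the 1 marker of the list with no overlap, was at 1890 and 1149 CPM.

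Crygd, the most abundant of the crystallins, was high in the d3 libraries and low in all others. Among the d3 lines, the parental duplicates had 119 and 45 counts, those of clone 12 had 198 and 30, and those of clone 21 had 106 and 45. The other 18 libraries had between 0 and 18 counts, and 6 of them had none. In CPM, the d3 libraries ranged from 2.69 to 13.1 with a median of 6.65, and the others from 0 to 1.66 with a median of 0.303. The families did not overlap, and the d3 mean of 7.12 ± 4.05 CPM (SD, n = 6) was 18.0 times the mean of 0.396 ± 0.473 CPM (SD, n = 18) of the others. The parental line shared this level with its clones, at 7.23 CPM (mean of 9.82 and 4.63), so the high level was already there in the line with the genotype control.

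Cryge, which lies between Crygd and Akr1cl, had the same order at a lower level. The d3 parental duplicates had 37 and 14 counts, clone 12 had 61 and 7, and clone 21 had 32 and 15, against 0 to 7 in the other 18 libraries. The lowest d3 library, at 0.628 CPM, was above the highest of the others, at 0.520 CPM. The mean was 2.17 ± 1.28 CPM (SD, n = 6) in d3 and 0.146 ± 0.178 CPM (SD, n = 18) elsewhere, a fold of 14.9.

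Crygc, the crystallin farthest from Akr1cl, was the least abundant, and its groups overlapped. Counts were 16 and 6 for the parental line of d3, 32 and 4 for clone 12, and 26 and 3 for clone 21, against 0 to 8 elsewhere, with 13 of the 18 libraries at 0. The mean was 1.13 ± 0.851 CPM (SD, n = 6) in d3 and 0.0886 ± 0.180 CPM (SD, n = 18) in the others, a fold of 12.8, and 4 of the 6 d3 libraries were above all others. Fewer cells with the RNA and less RNA per cell cannot be told apart in these bulk samples.

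Complete separation, with all 6 d3 libraries above all 18 others, was met by 2 of the 5 genes, Cryge and Crygd, and by 186 of the 16253 genes tested, 1.14%. Since the genes were chosen by these levels, nothing is read from that count.

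**Figure D1:**
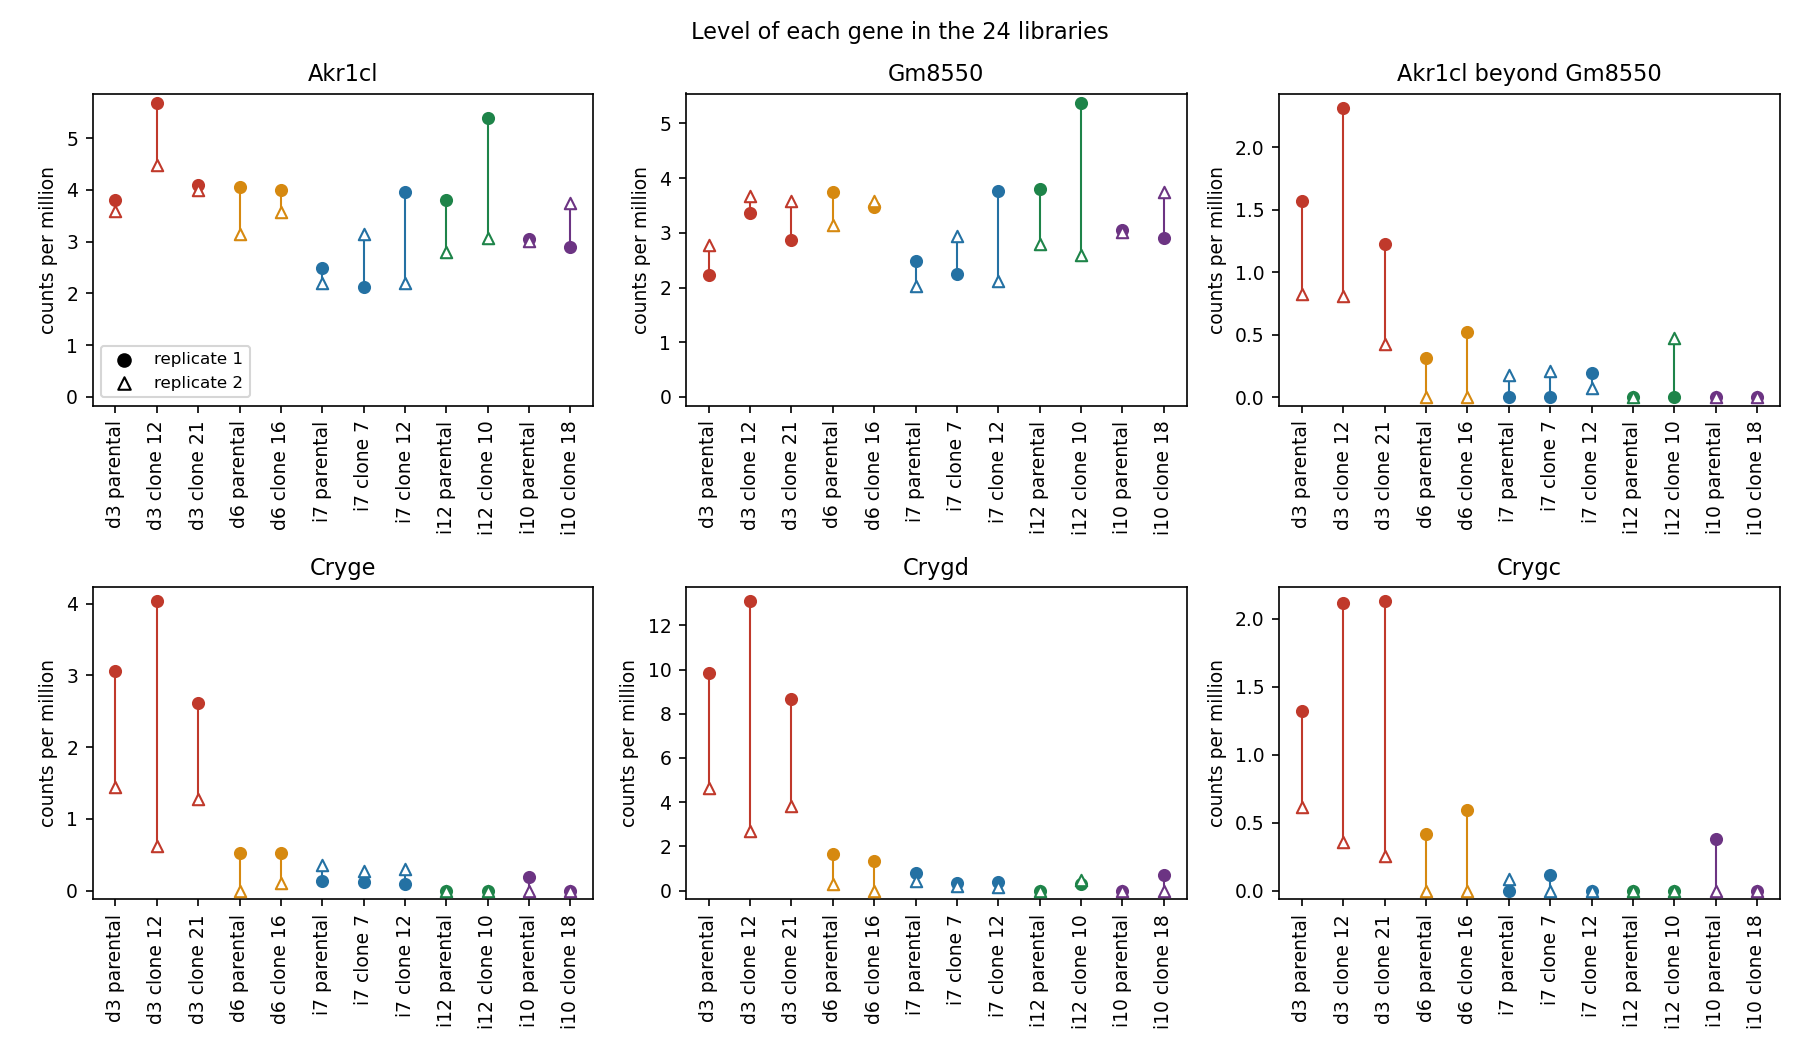
Level of each gene in CPM (y axis, linear) in the 12 lines (x axis, coloured by family), with replicate 1 as a filled circle, replicate 2 as an open triangle and a line joining the duplicates. Cryge, Crygd, Crygc and the Akr1cl counts beyond those of Gm8550 are highest in the 3 d3 lines, with replicate 1 above replicate 2, while Gm8550 lies between 2.03 and 5.38 CPM in all libraries.

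Among the other families, d6 stood next to d3 in the mean level of all 3 crystallins. The d6 parental duplicates had 16 and 2 Crygd counts and those of clone 16 had 18 and 0, a family mean of 0.827 CPM. Cryge had 5 and 0 counts, then 7 and 1, and Crygc had 4 and 0, then 8 and 0. In each case the counts came almost wholly from replicate 1, so the d6 duplicates overlap with the remaining families.

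The i7 family had low counts spread over its libraries, with 2 to 6 of Crygd and 1 to 4 of Cryge in each of the 6. Its mean level was 0.389 CPM for Crygd, 0.214 CPM for Cryge and 0.0345 CPM for Crygc. In i12, Crygd had 4 counts in all, and Cryge and Crygc had 0 in 4 libraries. In i10 there were 3 counts of Crygd, 1 of Cryge and 2 of Crygc. A count of 0 allows up to 3 counts, so at the depth of i12 and i10 these families cannot be placed in order below i7.

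Within d3, crystallin levels differed more between the duplicates of a line than between the lines. Replicate 1 of Crygd was at 9.82, 13.1 and 8.67 CPM in the parental line, clone 12 and clone 21, and replicate 2 at 4.63, 2.69 and 3.83 CPM. Cryge was at 3.05, 4.03 and 2.62 CPM in replicate 1 and 1.44, 0.628 and 1.28 CPM in replicate 2. Crygc was at 1.32, 2.11 and 2.13 CPM in replicate 1 and 0.617, 0.359 and 0.255 CPM in replicate 2. All 3 genes were more than 2 times as high in replicate 1 in all 3 d3 lines, a pattern met by 395 of the genes tested, 2.43%. What the replicate numbers share is not given in the labels, and a cause of this gap was not tested.

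Akr1cl showed a different pattern from the crystallins in its total level. The parental line of d3 had 46 and 35 counts, clone 12 had 86 and 50, clone 21 had 50 and 47, and there were between 10 and 54 counts in the other 18 libraries. The d3 mean was 4.28 ± 0.751 CPM (SD, n = 6) against 3.26 ± 0.819 CPM (SD, n = 18), a fold of 1.31, and the groups overlapped. In order of level, d3 was followed by i12 at 3.76 CPM, d6 at 3.69 CPM, i10 at 3.18 CPM and i7 at 2.69 CPM, and the ranges of families next to each other in that order overlapped.

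Gm8550 was not set apart in d3. Its family means ran from 2.60 CPM in i7 to 3.64 CPM in i12, with d3 between them and overlapping ranges. Counts were 27 and 27 for the d3 parental duplicates, 51 and 41 for clone 12 and 35 and 42 for clone 21, with 10 to 47 counts elsewhere. Its means of 3.08 ± 0.556 CPM (SD, n = 6) in d3 and 3.16 ± 0.801 CPM (SD, n = 18) in the others gave a fold of 0.976. Apart from Akr1cl, its longest transcript match was Tma16, with 92.3% identity over 662 bp. Gm8550 was higher in replicate 1 in 0 of the 3 d3 lines, unlike the crystallins.

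The counts of Akr1cl and Gm8550 are not independent. A stretch of 494 bp of Gm8550, at chr1:65028080-65028573, overlaps an exon of an Akr1cl transcript on the opposite strand, which leaves 159 bp of the pseudogene outside it. The 2 genes had equal counts in 25 of the 48 allele columns, and Gm8550 was not above Akr1cl in 47 of them. The library kit keeps the strand of the RNA, but which strand was counted is not given in the sources used here, so reads of the shared stretch cannot be told apart between the genes. Among genes with at least 200 counts in all, the same nesting was found in 48 antisense genes, Gm8550 included. Each has a single exon of which at least 75% lies in a host exon. In 37 of the 48, 77.1%, the host was never below the nested gene, and Gm8550 is not among those 37. For 144 such genes within introns the figure was 53, or 36.8%.

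The Akr1cl counts beyond those of Gm8550, a difference taken per allele column after the values had been seen and set to 0 in the 1 column where it was negative, followed the crystallins. They came to 19 and 8 for the parental line of d3, 35 and 9 for clone 12, and 15 and 5 for clone 21, with 0 to 7 in the other 18 libraries, 11 of which had none. The mean was 1.19 ± 0.674 CPM (SD, n = 6) in d3 and 0.109 ± 0.170 CPM (SD, n = 18) elsewhere, a fold of 11.0, and 5 of the 6 d3 libraries were above all others. Over the 12 line means of log2(CPM + 1), the Pearson correlation of this remainder was 0.961 with Crygd and 0.953 with Cryge, whereas that of Gm8550 was -0.05 with Crygd and -0.13 with Cryge. The crystallins correlated with each other at 0.981 for Cryge and Crygd, 0.973 for Cryge and Crygc and 0.956 for Crygd and Crygc. These values rest on the same libraries, and mostly on the 3 d3 lines, and are descriptions.

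Relative to exon length, the order of levels in d3 was Crygd at 6.93 CPM per kb, Gm8550 at 4.72, Cryge at 3.01, Crygc at 1.44 and Akr1cl at 1.02 CPM per kb. In the 18 others it was Gm8550 at 4.84, Akr1cl at 0.774, Crygd at 0.385, Cryge at 0.201 and Crygc at 0.113 CPM per kb. The place of Akr1cl in these orders is uncertain, since its counts are not independent of those of Gm8550. In the 18 others Akr1cl had 456 counts, Gm8550 had 437, and 20 were beyond Gm8550. Exon length also does not show how many bases can assign a read to an allele. In both sets Crygd was ahead of Cryge, and Cryge of Crygc. The crystallins are alike in sequence, with 91.5% identity between the aligned transcripts of Crygd and Cryge. Of all windows of 75 bases, the read length, 35.3% in Cryge were shared with Crygd or Crygf, 13.5% in Crygd with Cryge or Crygf, and 18.7% in Crygc with Crygb. How reads with several placements were counted is not given in the sources used here, so the split of counts between these genes is uncertain.

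The alleles were used unequally, and not in 1 direction. Crygd came mostly from the 129S1 allele, with 111 of 119 and 43 of 45 counts for the parental duplicates of d3, 178 of 198 and 30 of 30 for clone 12, and 103 of 106 and 45 of 45 for clone 21. Pooled over d3 this was 510 of 543 counts, 93.9% (95% Wilson interval 91.6 to 95.6%), and in the other 18 libraries 59 of 66, 89.4% (79.7 to 94.8%). The lean to 129S1 was thus present at both the high and the low level.

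Cryge leaned to CAST in d3, with 52 of 166 counts from 129S1, 31.3% (24.8 to 38.7%), and 14 of 29 counts, 48.3% (31.4 to 65.6%), elsewhere. Crygc had 48 of 87 counts from 129S1 in d3, 55.2% (44.7 to 65.2%), and 9 of 16, 56.3% (33.2 to 76.9%), in the others. The 3 neighbouring crystallins therefore had 3 different allele shares in the same d3 libraries. Sequence shared between the crystallins also bears on which reads are informative for an allele, and its part in these shares was not tested. Intervals cover counting error only.

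The Akr1cl counts came mainly from CAST. The 129S1 allele gave 82 of 314 counts in d3, 26.1% (21.6 to 31.2%), and 35 of 456, 7.68% (5.57 to 10.5%), in the others. The d3 share was 35.7% (29.1 to 42.9%) in replicate 1 and 12.9% (8.20 to 19.7%) in replicate 2, and the latter interval overlaps that of the others. The CAST allele of Akr1cl had nearly the same mean level in both, 3.21 CPM in d3 and 3.03 CPM elsewhere, whereas the 129S1 allele had 1.07 and 0.231 CPM, a fold of 4.62. Gm8550 matched most of those CAST counts, with 202 beside 232 of Akr1cl in d3 and 416 beside 421 elsewhere. Gm8550 had 21 of 223 counts from 129S1 in d3, 9.42% (6.24 to 14.0%), and 21 of 437, 4.81% (3.16 to 7.23%), elsewhere. By replicate its d3 share was 15.9% (18 of 113) and 2.73% (3 of 110), above and below that of the others. The Akr1cl counts beyond Gm8550 came from 129S1 at 67.0% (56.9 to 75.8%) in d3 and 75% (53.1 to 88.8%) in the others, on 91 and 20 counts. The CAST share of Akr1cl and that of Gm8550 thus went together, and the remainder leaned the other way. The mean of the remainder was higher in d3 on both alleles, with overlapping ranges. It was 0.800 against 0.0851 CPM on 129S1 and 0.394 against 0.0236 CPM on CAST, the latter on 30 and 5 counts.

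**Figure D2:**
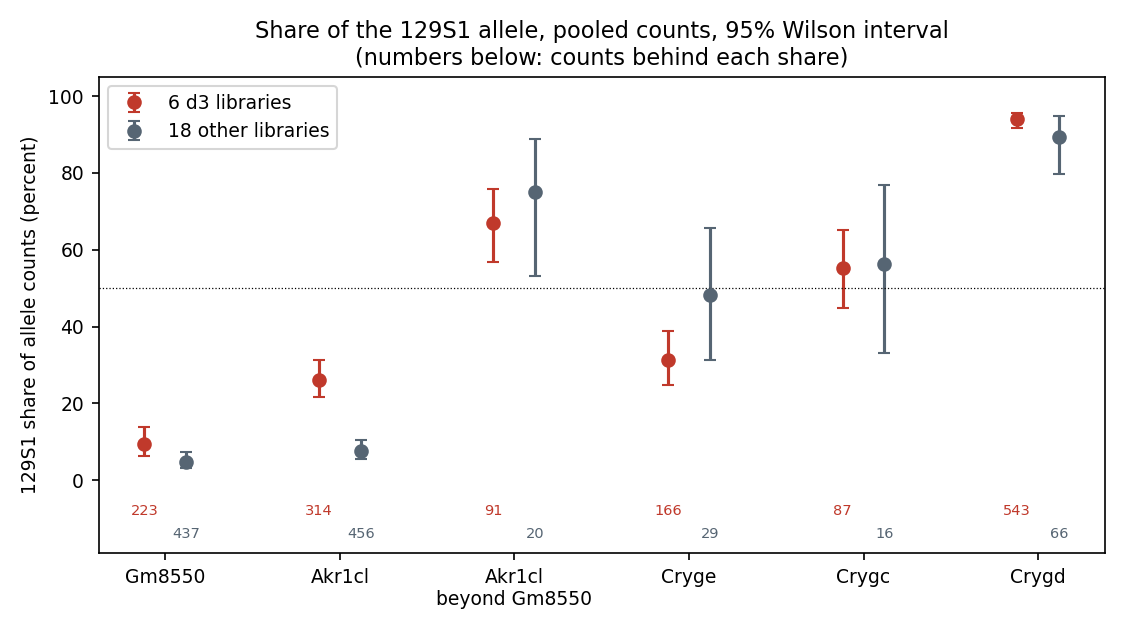
Share of counts from the 129S1 allele in percent (y axis) for each gene (x axis), pooled over the 6 d3 libraries (red) and the 18 other libraries (grey), with 95% Wilson intervals and the number of counts printed below each point. The dotted line marks equal shares; Gm8550 and Akr1cl lie below it and Crygd, at 93.9% and 89.4%, well above it.

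Each clone was compared with its own parental line, the comparison set by the study's design. None of the 5 genes was called in any of the 7 comparisons at an adjusted p under 0.05 (edgeR quasi-likelihood test, Benjamini-Hochberg over 16253 genes), and 0 of the 35 member tests reached an unadjusted p below 0.05. DESeq2 also called 0. Of these tests, those of Cryge and Crygc in i12 clone 10 compared 0 counts with 0 and could not have differed, and the crystallin tests in i12 and i10 rest on at most 3 counts per library. Few genes were called at all: 0.0123% for d3 clone 12, 0.0554% for d3 clone 21, 0.0123% for d6 clone 16, 0.0246% for i7 clone 12, and 0% for i7 clone 7, i12 clone 10 and i10 clone 18. In d3 clone 12 the log2 fold change was 0.13 (SE 0.859) for Crygd, 0.07 (SE 0.831) for Cryge, 0.37 (SE 1.12) for Crygc, 0.46 (SE 0.346) for Akr1cl and 0.49 (SE 0.371) for Gm8550. In d3 clone 21 it was -0.21 (SE 0.866) for Crygd, -0.21 (SE 0.844) for Cryge, 0.28 (SE 1.14) for Crygc, 0.13 (SE 0.349) for Akr1cl and 0.36 (SE 0.373) for Gm8550. The median over all genes was 0.01 and -0.01 in these comparisons. The lack of a call does not show that clone and parental line are alike.

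The design also compares the allelic ratio, 129S1 over CAST, of clone and parental line, restricted to genes that average 10 or more counts over the 129S1 columns and also over the CAST columns. None of the 5 genes reached that average for both alleles, so 0 were tested there. Over the 10795 genes that did, the edgeR quasi-likelihood test called 0.0463% for d3 clone 12, 3.41% for d3 clone 21, 0.0463% for d6 clone 16, 0.00926% for i7 clone 7, 2.33% for i7 clone 12, 0.00926% for i12 clone 10 and 0% for i10 clone 18. When the minimum was lowered to 3 counts Akr1cl entered, and 0 of its 7 comparisons was called.

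Within 500 kb on either side, the count table held 25 further genes, of which 10 had a mean of at least 10 counts per library and none was called in a clone. To the Akr1cl side, 6 genes kept near-equal means in d3 and the others: Creb1, a cAMP-responsive transcription factor, Mettl21a, 2810408I11Rik, Ccnyl1, Fzd5, a Wnt receptor, and Plekhm3, with folds of 0.909 to 1.19. Beyond Crygc lay Gm28845 and D630023F18Rik, which overlap each other and had folds of 1.97 and 1.94 with overlapping ranges. Idh1, the cytosolic NADP-dependent isocitrate dehydrogenase, followed at a fold of 1.10 and Pikfyve, a phosphoinositide kinase, at 0.768. Folds above 10 were thus seen for the 3 crystallins and for the Akr1cl counts beyond Gm8550, and for none of these 10 neighbours. No fold was taken for the 15 genes of the window below that mean, under which Cryge and Crygc also fall. The comparison therefore does not show where along the chromosome the high folds end.

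**Figure D3:**
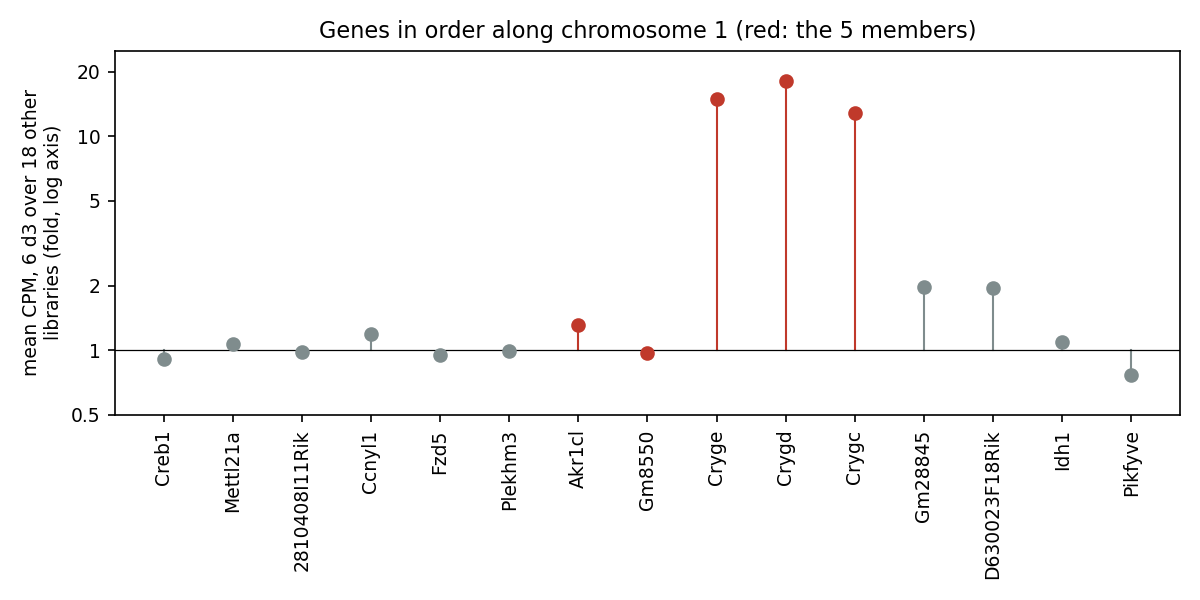
Ratio of mean CPM in the 6 d3 libraries to that in the 18 others (y axis, log scale) for the 5 genes (red) and the 10 named neighbours (grey), in their order along chromosome 1 (x axis, not to scale). Cryge, Crygd and Crygc stand at 14.9, 18.0 and 12.8, while the neighbours lie between 0.768 and 1.97.

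Of 16 crystallin genes listed for the lens, 5 were tested, 0 were called in a clone and 3, Cryba2, Cryba4 and Crybb2, had no count in any library. The median log2 fold change of the list over the clone comparisons was 0.07, beside medians of -0.01 to 0.01 over all genes. Cryab, a small heat shock protein also made outside the lens, was at 1.56 CPM in d3 and 0.968 CPM elsewhere, with overlap. Crygf, which is 96.0% identical to Cryge over the aligned transcript and was singled out after its values were seen, had 20 counts in d3 and 2 in the other libraries. Cryga had 11 and 12 counts, and Crygb 3 and 0. Crybb3 and Crygn, also singled out after their values were seen, had lower means in d3, with overlapping ranges. Crybb3 was at 0.274 CPM in d3 and 0.648 CPM elsewhere, on 18 and 86 counts, and Crygn at 0.234 and 0.268 CPM. Most crystallins outside Cryge, Crygd and Crygc were thus at or near 0.

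Of 17 aldo-keto reductases, Akr1cl among them, 10 were tested and 0 were called, with a median log2 fold change of -0.08. Akr1b3, an aldose reductase, was at 441 CPM in d3 and 310 CPM in the others, and Akr1a1, which reduces aldehydes, at 69.1 and 78.3 CPM, both with overlap. Members of the Akr1c cluster on chromosome 13, singled out after their values were seen, were also higher in d3 means: Akr1c12 at 0.988 against 0.101 CPM, Akr1c13 at 2.12 against 0.413 CPM and Akr1c18 at 1.08 against 0.174 CPM, all with overlapping ranges.

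Of 8 lens transcription factors, Maf and Foxe3 had no count in any library, 1 was tested and 0 were called. The highest were Sox1, at 1.35 CPM in d3 and 2.34 CPM elsewhere, and Prox1, at 0.187 and 0.410 CPM. Others of the list, chosen after their values were seen, had higher means in d3, with Pitx3 at 0.411 and 0.159 CPM and Pax6 at 0.283 and 0.120 CPM. The ranges of all 4 overlapped.

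Of 9 lens fibre cell markers, 2, Crybb2 and Lgsn, had no count in any library, and the sum over the list was 7.44 to 11.8 CPM in d3 and 1.69 to 5.56 CPM in the others. The sum moved with Bfsp1, a beaded filament protein of fibre cells, which was at 7.46 ± 2.27 CPM (SD, n = 6) in d3 and 0.848 ± 0.766 CPM (SD, n = 18) elsewhere, with no overlap between 4.85 and 2.38 CPM. Lim2, a fibre membrane protein, was at 1.09 CPM in d3 and 1.51 CPM in the others. Mip, a lens water channel, at 1.18 and 0.996 CPM, and Cryaa, a lens alpha-crystallin with 3 and 10 counts, were chosen after their values were seen.

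Of 8 markers of two-cell-like cells, 7 were found in the table and 0 were called in a clone. Their sum was 1.61 to 22.4 CPM in d3 and 0 to 4.22 CPM elsewhere, with overlap, and 4, including Zscan4c, Zscan4d and Zscan4f, which define that state, had no count in any library. How reads with several placements were counted is not given, so these counts of 0 do not show that the RNA was absent. Gm8300 led the list, at 7.96 CPM in d3 and 0.867 CPM in the others, followed by Tcstv3 at 1.12 and 0.144 CPM. Zfp352, with 23 counts in d3 and 1 elsewhere, was chosen after its values were seen. Sums also overlapped for 7 primitive endoderm markers (4.34 to 12.5 CPM in d3, 3.35 to 12.1 CPM elsewhere), 6 fibroblast markers (7.53 to 21.7 and 3.92 to 25.7 CPM) and 4 neural progenitor markers (36.5 to 78.1 and 29.9 to 73.9 CPM). Of the fibroblast markers, Thy1 was the highest, at 10.9 CPM in d3 and 11.0 CPM elsewhere, and Col1a1, a fibrillar collagen chain, was at 2.81 and 0.933 CPM with no overlap, the lowest d3 library at 1.72 and the highest other at 1.68 CPM. The part of any of these cell types in the crystallin levels was not tested.

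**Figure D4:**
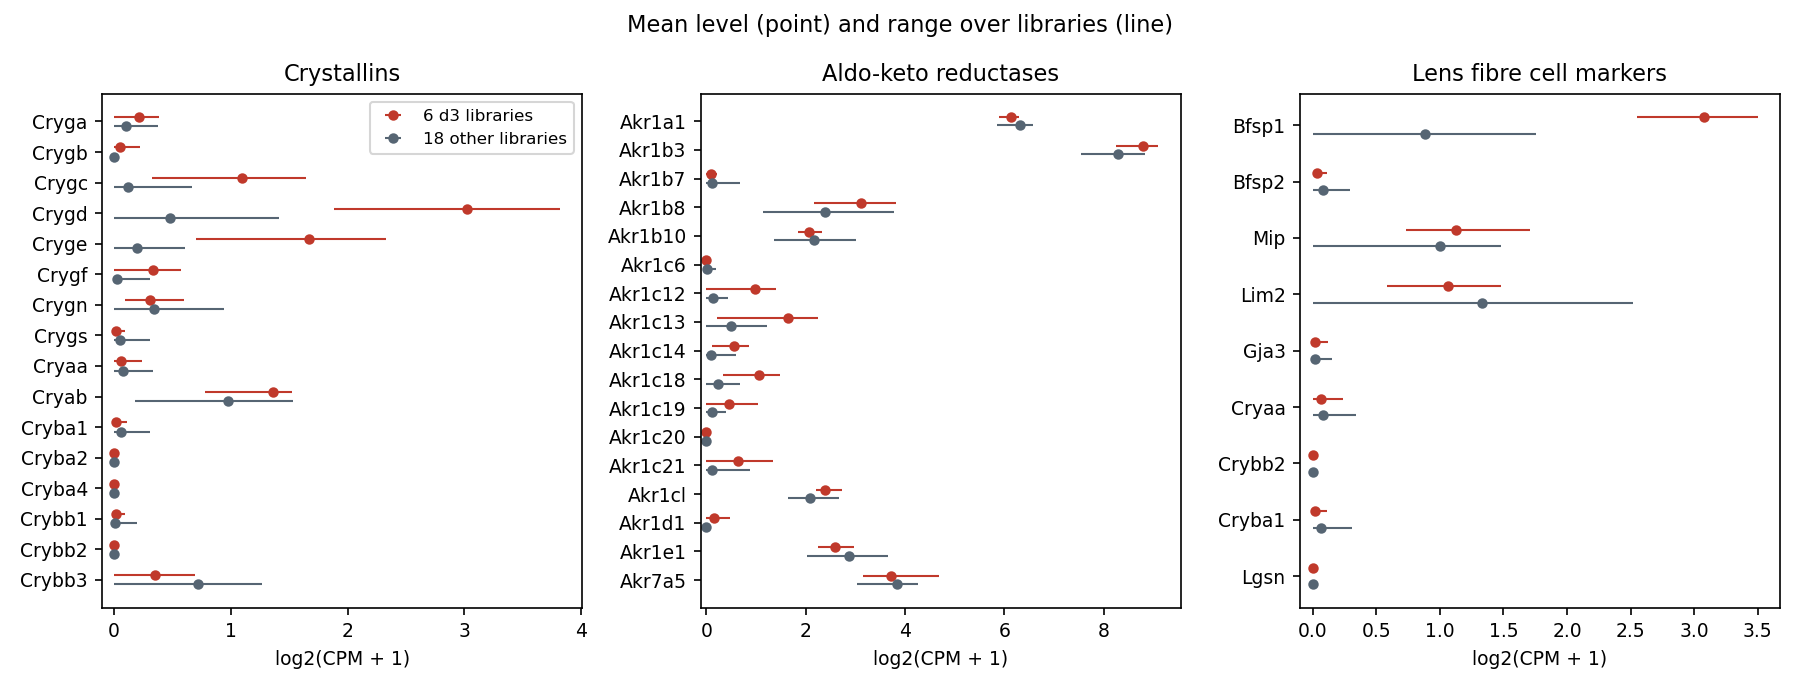
Mean (point) and range over libraries (line) of log2(CPM + 1) (x axis) for the listed crystallins, aldo-keto reductases and lens fibre cell markers (y axis), in the 6 d3 libraries (red) and the 18 others (grey). Crygd, Cryge and Bfsp1 have ranges that do not overlap, while most other crystallins and fibre markers lie near 0.

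The genes whose line means were most like those of the members were found by Pearson correlation over the 12 line means of log2(CPM + 1), among the 14511 genes that averaged 1 CPM or more. For the 3 crystallins summed these were Piwil1 (0.985), Zfp384 (0.982), Fndc9 (0.982), Echdc2 (0.980) and Stpg1 (0.979), all on other chromosomes. Echdc2, for example, was at 455 CPM in d3 and 208 CPM in the others. For Akr1cl they were Lsg1 (0.979), Rpgr (0.958), Gm13697 (0.939), Top1 (0.937) and Gm11877 (0.931). The lists had no gene in common. With 3 d3 lines against 9 others, such values can be high for any gene that is set apart in d3.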

How the data were processed

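The authors deposited raw counts per gene, in a 129S1 and a CAST column for each library. Per the labels' protocols, polyA RNA was made into libraries with a stranded kit and sequenced as single-end reads of 75 bases. STAR, SAMtools and the build mm10 are named in the submitters' processing notes. The counting tool, its strand setting and the handling of reads that fit both alleles are not given in the sources used here.

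Both columns were added per library (3286819 to 15581094 counts). Of 48985 gene IDs, 48838 matched GENCODE M21 without the version; the rest held 0.0148% of counts. Clones were compared with parental lines in 1 edgeR 4.0.16 quasi-likelihood fit over 24 libraries (TMM, filterByExpr on the 12 lines, Benjamini-Hochberg, threshold 0.05), and DESeq2 1.42.0 was an alternative. The method was tested on simulated data. Transcripts were aligned with BLAST 2.17.0. Replicates are biological duplicates per the labels, but separate cultures are not described, so p-values measure the spread between these samples.

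The genes and lists were chosen with earlier results of these data known. Named genes are the 5 members, neighbours within 500 kb with a mean of at least 10 counts, the 5 genes most correlated with Akr1cl and with the summed crystallins, and from each list those called in a clone or else its 2 highest; others are marked where named. 1 lens fibre cell marker was removed from its list and is not reported here; the remaining genes of each list enter its counts and sums.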

Additional observations from a re-analysis of the deposited data

How the results depend on the processing

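No member was called in a clone under any alternative that could be run: no filter on low counts (0 called, 2 at an unadjusted p under 0.05), only the libraries of the recombination, either allele alone, DESeq2, and leaving out each of the 24 libraries (0 to 0 called). With a replicate block 0 members were called. Same-numbered duplicates deviated together in every pair of lines of a family (r of 0.358 to 0.688 over 16253 genes). The labels do not say what the numbers share, so whether they pair samples is not settled, and the main fit has no block. The block moved the calls over all genes from 17 to 1055. In d3 clone 12 the block turned the log2 fold change of Crygd from 0.13 (SE 0.859) to -0.03 (SE 0.312) and of Cryge from 0.07 (SE 0.831) to -0.06 (SE 0.421). Under the stricter filter no member was left to test, and no member entered the allelic test at a minimum of 10 or 30 counts, with the block or with a library left out. Some alternatives tested only part of the members. On 129S1 alone these were Akr1cl, Crygd and Cryge, and on CAST alone Akr1cl, Cryge and Gm8550. With only the libraries of the recombination, 21 member tests were made, none of a crystallin in i7, i12 or i10. DESeq2 gave no adjusted p for Cryge and Crygc in d3 clone 21 and i7 clone 12.

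Mean d3 levels moved when alleles were taken alone, with CPM then relative to the total counts of that allele only. Akr1cl moved to 2.06 CPM on 129S1 and 6.62 on CAST, Gm8550 to 0.513 and 5.81, and Crygd to 13.0 and 0.843. The change of scale is part of these moves, so the values cannot be set beside the CPM of both alleles added. Leaving out 1 d3 library gave 3.99 to 4.41 CPM for Akr1cl, 2.96 to 3.25 for Gm8550, 1.80 to 2.48 for Cryge, 5.93 to 8.01 for Crygd and 0.933 to 1.31 for Crygc. Chosen after seeing the data, the fold of d3 over the others from replicate 2 alone was 6.61 for Akr1cl beyond Gm8550, 9.58 for Cryge and 41.8 for Crygc. The last rests on 13 counts against 1, a pooled ratio of 28.2 with an exact counting interval of 4.23 to 1197. Without d6 the Crygc fold was 27.0. The fold of Gm8550 crossed 1, to 1.16 from replicate 2 alone and 1.01 without d6. Depth limits the crystallins outside d3, where most libraries hold 3 counts or fewer.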
